A study of Mus musculus with 10 samples.

Results

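Slc7a11, the cystine and glutamate exchanger, stood higher in trigeminal ganglia of Prdm12 knockout embryos than in wild type, and it was asked whether 9 partner, glutathione and stress-response genes, and the wider Atf4 and Nrf2 programmes, followed it. The 10 genes were Slc7a11, Slc3a2, Gclc, Gclm, Atf4, Chac1, Nqo1, Hmox1, Txnrd1 and Srxn1, taken by Ensembl ID from 55414 gene IDs. They were chosen by a measured value, the difference of Slc7a11 between the genotypes in these same libraries, so that difference is given as a description without a test. All 10 passed the filter on low counts.

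RNA was sequenced from microdissected trigeminal ganglia, the sensory ganglia of the face, of C57Bl6 mouse embryos at E13.5. One group was Prdm12-/- (5 libraries, numbered 16, 29, 42, 49 and 50) and the other Prdm12+/+ (5 libraries, numbered 22, 24, 32, 35 and 45). All 10 libraries carry Sox10 Venus+ in the genotype label, so the controls share it, and no step of cell sorting is named. Prdm12 encodes a zinc-finger regulator needed for pain-sensing neurons, and the series title calls its loss constitutive, which means that no cell type was singled out for it. Whether each library came from its own embryo is not said in the labels. The p-values therefore reflect only how these samples vary, and part of that may be technical. Titles start with F for every knockout and K for every wild type, and a handling difference marked by these letters cannot be told apart from genotype.

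Levels are CPM, read counts scaled to a common library size with TMM factors, and differences are log2 fold changes of knockout over wild type from edgeR's quasi-likelihood test. A gene was called at an adjusted p under 0.05 over the 18005 genes tested, and 84 were (0.467%), 17 of them higher (0.0944%) and 67 lower (0.372%). Library totals ran from 27612355 to 32045821 counts in wild type and from 13603690 to 33556002 in 4 knockout libraries, but reached 3258008 in knockout 49. Prdm12 itself stood at 8.74, 42.7, 10.1, 12.2 and 17.0 CPM in knockout 16, 29, 42, 49 and 50 and between 74.3 and 264 CPM in wild type, so every library matched its label, with knockout 29 the highest knockout. Sensory neuron markers were abundant in every library, with a sum over 7 genes of 4194 to 12220 CPM. Knockout 29 had the highest glial and erythroid sums of all libraries, and wild type 32 and 35 the lowest macrophage and mesenchymal sums.

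Slc7a11 pairs with the heavy chain Slc3a2 to form system xc-, which takes up cystine in exchange for glutamate. Cystine is reduced to cysteine, and glutamate-cysteine ligase, made of the catalytic subunit Gclc and the modifier subunit Gclm, uses it for the first step of glutathione synthesis. Slc7a11 is a known target of both Atf4, whose protein is made when the integrated stress response slows translation, and of Nrf2 (gene Nfe2l2), which Keap1 holds down until oxidants or electrophiles release it.

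The bases before the Slc7a11 start are shown because they hold a pair of facing matches to the C/EBP-ATF response element (CARE, searched as TGATGNAA), the kind of site that Atf4 binds. Chac1 and Nupr1, further known Atf4 targets, hold 1 match each, and Gclm holds a match to the antioxidant response element (ARE, searched as TGACNNNGC) that Nrf2 binds. Sequences are from RefSeq on GRCm38.p6, each 250 bases long, 5′ to 3′ on the gene's strand and ending 1 base before the annotated start. Capitals mark the matches, found on either strand. The places are chr3:50443614-50443863 (minus strand) for Slc7a11, chr2:119350992-119351241 (plus) for Chac1, chr7:126625471-126625720 (minus) for Nupr1 and chr3:122245307-122245556 (plus) for Gclm.
Slc7a11: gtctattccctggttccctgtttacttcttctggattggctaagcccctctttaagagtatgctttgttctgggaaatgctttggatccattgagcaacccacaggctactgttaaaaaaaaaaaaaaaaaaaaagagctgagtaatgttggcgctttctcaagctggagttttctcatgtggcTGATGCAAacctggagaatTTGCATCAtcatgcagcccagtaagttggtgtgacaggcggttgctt
Chac1: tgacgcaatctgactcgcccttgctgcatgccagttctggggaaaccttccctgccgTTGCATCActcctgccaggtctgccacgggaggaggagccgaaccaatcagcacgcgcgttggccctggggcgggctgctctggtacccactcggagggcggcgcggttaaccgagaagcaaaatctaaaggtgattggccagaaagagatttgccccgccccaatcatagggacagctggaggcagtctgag
Nupr1: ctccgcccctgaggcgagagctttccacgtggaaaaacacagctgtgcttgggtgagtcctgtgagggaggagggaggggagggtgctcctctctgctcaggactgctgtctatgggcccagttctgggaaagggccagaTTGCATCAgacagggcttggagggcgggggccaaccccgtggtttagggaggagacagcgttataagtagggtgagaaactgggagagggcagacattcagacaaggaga
Gclm: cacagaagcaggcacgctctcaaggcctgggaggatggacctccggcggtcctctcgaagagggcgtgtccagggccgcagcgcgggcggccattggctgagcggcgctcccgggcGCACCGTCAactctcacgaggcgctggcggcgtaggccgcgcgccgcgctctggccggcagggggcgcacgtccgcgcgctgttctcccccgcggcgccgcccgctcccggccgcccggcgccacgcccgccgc

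In Slc7a11 the first match reads on the gene's strand at -66 to -59 from the start, and the second on the other strand at -47 to -40, with 11 bases between. Both carry the same 8 letters, TGATGCAA. Of 32851 RefSeq windows of 300 bases (250 before and 50 after a start), 3.97% held a CARE, and 23 windows (0.07%) held 2 or more. An ARE was in 12.4% of windows and in none for Slc7a11. Windows were found for 8 of the 10 genes, and for Gclc and Hmox1 none was found. Besides Gclm, Srxn1 held an ARE at 29 to 37 after its start, and 1 of 3 windows of Txnrd1 at -92 to -84, while the windows of Slc3a2, Atf4 and Nqo1 held neither motif. A match describes letters, not a bound site.

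Slc7a11 stood at 15.2, 11.6, 38.6, 29.8 and 59.3 CPM in knockout 16, 29, 42, 49 and 50, and at 3.60, 7.90, 5.06, 3.58 and 7.78 CPM in wild type 22, 24, 32, 35 and 45; values below keep this order. All 5 knockout libraries lay above all 5 wild types. The knockout mean was 30.9 ± 19.3 CPM and the wild-type mean 5.58 ± 2.14 CPM (SD, n = 5 each). The fitted log2 fold change was 2.47 (SE 0.45). The knockout libraries differed 5.09-fold among themselves, with a coefficient of variation of 62.3% against 38.4% in wild type. The counts behind the lowest values were 103 in knockout 49, 105 in wild type 35 and 108 in wild type 22. In these bulk samples, fewer cells of a type and less RNA per cell cannot be told apart, and the same holds for more of either.

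**Figure D1:**
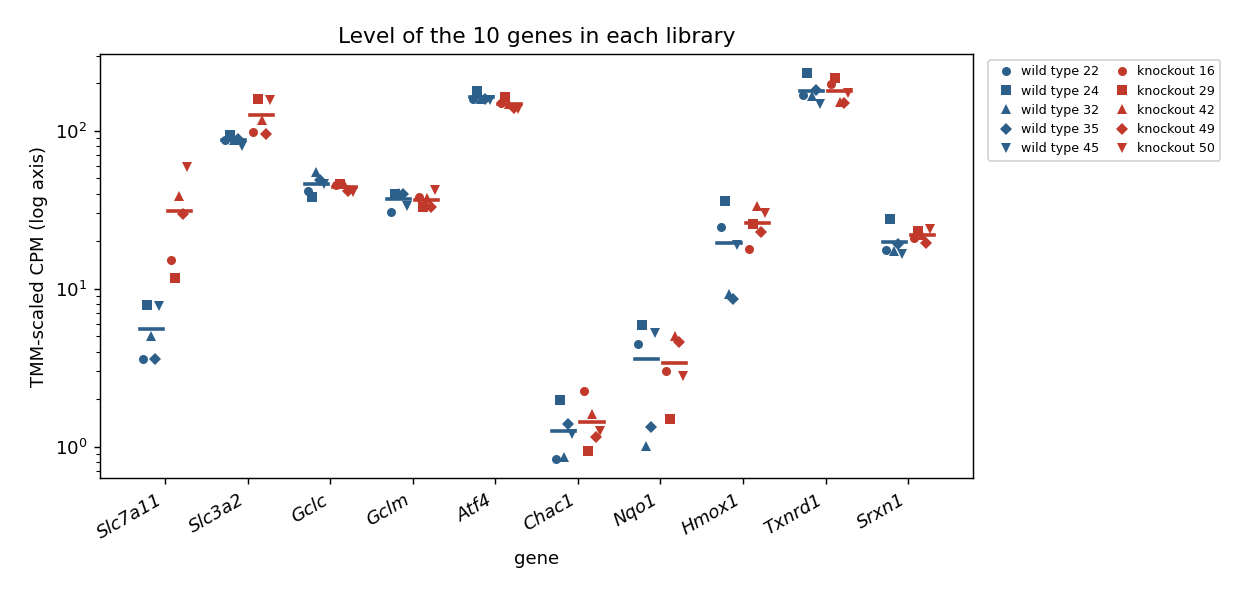
TMM-scaled CPM (log axis) of the 10 genes in each of 5 wild-type (blue) and 5 knockout (red) libraries. Points are libraries, with 1 marker shape per library within a group, and lines are group means. Slc7a11 and, by a narrow margin, Slc3a2 show no overlap between the groups, and the other 8 genes overlap.

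None of the other 9 genes was called, against 0.467% of all genes, and DESeq2 and limma-voom called 0 of them as well. The share of all genes that limma-voom called is not given here, so its lack of calls, here and for the lists below, says little. DESeq2 called 1.6% of the 21374 genes it tested higher and 1.14% lower. An unadjusted p under 0.05 was reached by 1 of the 9, Slc3a2, against 6.4% of all genes in the same direction and 6.73% in the other. Estimates were above 0 for 4 and below 0 for 5, with a median log2 fold change of -0.01, and the median of all tested genes was -0.03. Their adjusted p ran from 0.217 to 0.991, and across 18 other processing settings none of the 9 was called in any. With 0.467% of all genes called in the main fit, the lack of calls among the 9 does not show a lack of difference.

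Slc3a2, the heavy chain that carries Slc7a11 and other light chains to the membrane, stood at 99.0, 158, 117, 95.3 and 156 CPM in knockout and at 87.0, 94.3, 87.2, 89.3 and 79.7 CPM in wild type. The groups did not overlap, though the lowest knockout and the highest wild type lay close together, while 1.29% of all genes lay higher in knockout without overlap and 2.92% lower. The log2 fold change was 0.52 (SE 0.16, 95% interval 0.17 to 0.87) with an edgeR adjusted p of 0.217. Slc3a2 was highest in knockout 29, where Slc7a11 was lowest, and nearly as high in knockout 50, where Slc7a11 was highest.

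Slc7a11 is 1 of 6 light chains that pair with Slc3a2, and the others showed both directions. Slc7a5, the large neutral amino acid transporter LAT1, stood at 72.9, 71.6, 54.1, 57.3 and 142 CPM in knockout and at 39.2, 54.3, 33.4, 37.8 and 39.3 CPM in wild type, so only knockout 42 fell below the highest wild type. Slc7a8, the related LAT2, stood at 21.3, 22.5, 21.0, 20.8 and 33.1 CPM against 12.3, 17.6, 14.6, 14.7 and 15.5 CPM, with no overlap. Their log2 fold changes were 0.97 (SE 0.26, adjusted p = 0.149) and 0.67 (SE 0.17, adjusted p = 0.134) by edgeR, and DESeq2 called both (adjusted p = 0.0199 and 0.0106). Without knockout 50, the highest library for each, the log2 fold change of Slc7a5 was 0.65 and that of Slc7a8 was 0.52. Slc7a6 (log2 fold change -0.29), Slc7a7 (-0.22) and Slc7a10 (-0.04) overlapped between groups and were not called. Slc7a10 shares 377 exon bases with the opposite-strand gene Lrp3 (28211 counts over all libraries) and Slc7a7 shares 232 with Oxa1l (22902 counts), so their levels, and the ranks and shares below that rest on them, are uncertain if counting ignored strand.

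Per kilobase of exon, Slc7a11 was a minor light chain in both genotypes, at 2.22 ± 1.38 CPM per kb in knockout and 0.401 ± 0.154 in wild type (SD, n = 5). Its rank was 5 of 6 in knockout and 6 of 6 in wild type, and the ranks were the same by the length of the longest coding transcript. Its share of the summed light-chain level was 4.25% ± 2.10 in knockout and 0.979% ± 0.412 in wild type. Slc7a5 held 40.8% ± 6.97 in knockout and 26.8% ± 6.37 in wild type, and Slc7a6, the y+LAT2 light chain, held 36.1% ± 6.41 and 52.2% ± 6.72. The Slc3a2 level was 35.5 ± 8.59 CPM per kb in knockout and 24.8 ± 1.49 in wild type, so the heavy chain stood far above Slc7a11 in both.

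The 2 subunits of glutamate-cysteine ligase lay at similar levels in both groups. Gclc stood at 45.5, 46.3, 46.1, 41.4 and 40.8 CPM in knockout and at 41.7, 38.0, 54.5, 49.02 and 46.3 CPM in wild type, and the wild-type range contained the whole knockout range. Its log2 fold change was -0.06 (SE 0.12, adjusted p = 0.856), and the 95% interval of the fold ran from 0.796 to 1.16. Gclm stood at 38.1, 32.8, 37.7, 33.0 and 42.1 CPM against 30.8, 40.1, 40.7, 39.8 and 33.4 CPM, again overlapping. Its log2 fold change was -0.01 (SE 0.13, adjusted p = 0.991; fold interval 0.817 to 1.22), but the sign turned in 12 of the 18 other settings and in 3 for Gclc. Gclm shares 296 exon bases with the opposite-strand gene Gm17494 (928 counts over all libraries), and no label or note says whether counting used strand.

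**Figure D2:**
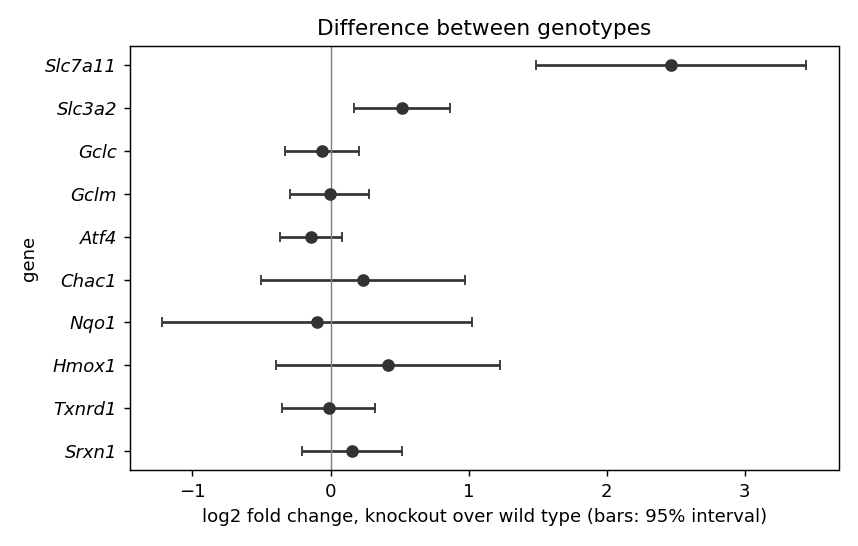
Log2 fold change of knockout over wild type for the 10 genes (x axis; points, edgeR estimate; bars, 95% interval from the same fit). Slc7a11 sits at 2.47 and was chosen for this difference; the other 9 lie between -0.14 and 0.52, with the widest bars for Nqo1, Hmox1 and Chac1.

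The estimate for Atf4 mRNA lay below 0. Atf4 stood at 151, 164, 147, 139 and 138 CPM in knockout and at 159, 180, 160, 160 and 156 CPM in wild type, a difference of -0.14 in log2 (SE 0.10, adjusted p = 0.557; fold interval 0.775 to 1.06). Since Atf4 is controlled largely in translation, its mRNA is no measure of its protein, and the protein was not measured. Chac1, which breaks glutathione down and is a sensitive Atf4 target in other cells, stood at 2.25, 0.944, 1.60, 1.16 and 1.26 CPM in knockout and at 0.834, 1.98, 0.866, 1.40 and 1.20 CPM in wild type. The groups overlapped throughout, and the log2 fold change was 0.24 (SE 0.34, adjusted p = 0.782). The 95% interval of the fold ran from 0.707 to 1.96, and knockout 49 gave 4 Chac1 counts.

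Among the Nrf2 targets, Txnrd1 (cytosolic thioredoxin reductase) stood at 197, 215, 152, 151 and 173 CPM in knockout and at 170, 232, 167, 181 and 147 CPM in wild type. Srxn1 (sulfiredoxin, which restores oxidised peroxiredoxins) stood at 20.9, 23.3, 21.9, 19.4 and 23.8 CPM against 17.6, 27.6, 17.5, 19.3 and 16.6 CPM. Both overlapped between groups, and in both the highest of all 10 libraries was wild type 24. The log2 fold change was -0.01 (SE 0.15, adjusted p = 0.980; fold interval 0.783 to 1.25) for Txnrd1, whose sign turned in 7 of 18 settings. For Srxn1 it was 0.15 (SE 0.17, adjusted p = 0.700; fold interval 0.865 to 1.43).

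Nqo1 (a quinone reductase) stood at 3.02, 1.49, 5.05, 4.63 and 2.80 CPM in knockout and at 4.44, 5.91, 1.00, 1.33 and 5.28 CPM in wild type. Hmox1 (heme oxygenase, abundant in macrophages that clear red cells) stood at 17.8, 25.8, 33.6, 22.9 and 30.1 CPM against 24.7, 36.1, 9.21, 8.64 and 19.0 CPM. In both genes the wild types split, with 32 and 35 below the other 3. Log2 fold changes were -0.10 (SE 0.51, adjusted p = 0.949) for Nqo1 and 0.42 (SE 0.37, adjusted p = 0.634) for Hmox1. Without wild type 32 and 35 they were -0.59 and 0.01. Those libraries also had the lowest sums over 6 macrophage markers, 40.5 and 49.02 CPM against 125 to 222 CPM in the other wild types and 140 to 299 CPM in knockout. The part of these cells in the Hmox1 and Nqo1 values was not tested.

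Most genes on wider lists of known targets were likewise not called. For each list, counts at an unadjusted edgeR p under 0.05 are to be set against 6.4% of all genes higher and 6.73% lower. Calls by edgeR at the adjusted p are to be set against 0.467% of all genes, so 0 calls in a short list say little. DESeq2 calls are to be set against 1.6% higher and 1.14% lower. Of 17 Atf4 targets taken as stress effectors (mostly regulators and secreted signals, and including Chac1, counted above too), 15 were tested and none was called by edgeR, DESeq2 or limma-voom, with 2 higher and 0 lower at an unadjusted p under 0.05. Estimates were above 0 for 10 of the 15, with a median of 0.36 against -0.03 over all genes, of which 46.3% were above 0. The largest were Cebpb (a bZIP partner of Atf4) at 1.03 (SE 0.36, adjusted p = 0.264), Nupr1 (a small stress-induced chromatin protein) at 0.99 (SE 0.66, adjusted p = 0.527) and Sesn2 (a sestrin that restrains mTORC1) at 0.74 (SE 0.24, adjusted p = 0.225). Sesn2 stood at 11.0, 13.9, 13.51, 17.1 and 15.2 CPM in knockout and at 8.21, 13.0, 5.54, 7.03 and 8.24 CPM in wild type. It was called in 1 of 18 other settings, the one without wild type 24, its highest wild type (edgeR adjusted p = 0.0498). Across the 18 settings its adjusted p reached 0.781. Nupr1 stood at 3.65, 1.65, 11.3, 6.37 and 13.9 CPM in knockout and at 3.67, 8.73, 0.970, 1.20 and 4.16 CPM in wild type, lowest in knockout 29 and highest in knockout 50 like Slc7a11, but with overlap. The untested genes of the list, Gdf15 and Fgf21, reached at most 0.178 CPM in any library.

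Of 17 Atf4 targets for amino acid synthesis and uptake, all were tested and 0 were called by edgeR or limma-voom, with 2 higher and 0 lower at an unadjusted p under 0.05; DESeq2 called Slc7a5. Estimates were above 0 for 10, with a median of 0.11. Besides Slc7a5, the largest were Cth (cystathionine gamma-lyase, which makes cysteine) at -1.02 (SE 0.50, adjusted p = 0.406) and Slc7a1 (a cationic amino acid transporter) at 0.62 (SE 0.29, adjusted p = 0.389). Slc7a1 reached 201 CPM in knockout 50, ranged from 65.7 to 96.5 CPM in the remaining knockouts, and from 49.5 to 81.0 CPM in wild type. Asns, a classic Atf4 target that makes asparagine, was named after its values were seen and stood at -0.37 (SE 0.18, adjusted p = 0.412).

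Of 12 aminoacyl-tRNA synthetases known as Atf4 targets, none was called by edgeR, DESeq2 or limma-voom, with 1 higher and 2 lower at an unadjusted p under 0.05. Estimates were below 0 for 9, with a median of -0.18. The largest were Cars (cysteinyl-tRNA synthetase) at 0.39 (SE 0.13, adjusted p = 0.258), Gars (glycyl) at -0.38 (SE 0.15, adjusted p = 0.310) and Lars (leucyl) at -0.27 (SE 0.11, adjusted p = 0.323). Cars was the 1 synthetase without overlap, at 51.5 to 77.1 CPM in knockout and 40.3 to 49.7 CPM in wild type.

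Of 28 Nrf2 targets outside the 10 genes, 27 were tested and 1 was called by edgeR, DESeq2 and limma-voom alike, a share to set against 0.0944% of all genes called higher. That gene was Abcc3, an exporter of organic anions and glutathione conjugates, whose difference was known from earlier results on these libraries and is no independent support. It stood at 3.67, 5.51, 5.05, 5.79 and 4.997 CPM in knockout and at 2.30, 2.49, 1.28, 1.26 and 1.97 CPM in wild type, with no overlap. It rose by 1.41 in log2 (SE 0.27, adjusted p = 0.0489), and the call held in 5 of 18 other settings, among which its adjusted p ran from 1.38e-05 to 0.452. The call was lost without any one of 8 libraries and kept without knockout 16 or wild type 24. Unlike Slc7a11, Abcc3 varied little among the knockouts.

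The other 26 Nrf2 targets were not called. Over the 27 tested, estimates were above 0 for 10 and below 0 for 17, with a median of -0.05, and 2 were higher and 1 lower at an unadjusted p under 0.05. After Abcc3 the largest were Cbr3 (a carbonyl reductase) at 0.65 (SE 0.60, adjusted p = 0.645) and Gsta4 (a glutathione transferase) at 0.54 (SE 0.52, adjusted p = 0.665). Ferritin, glutathione transferase and aldo-keto reductase genes have near-identical copies, and no label or note says how reads shared between copies were treated, so their values are uncertain.

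**Figure D3:**
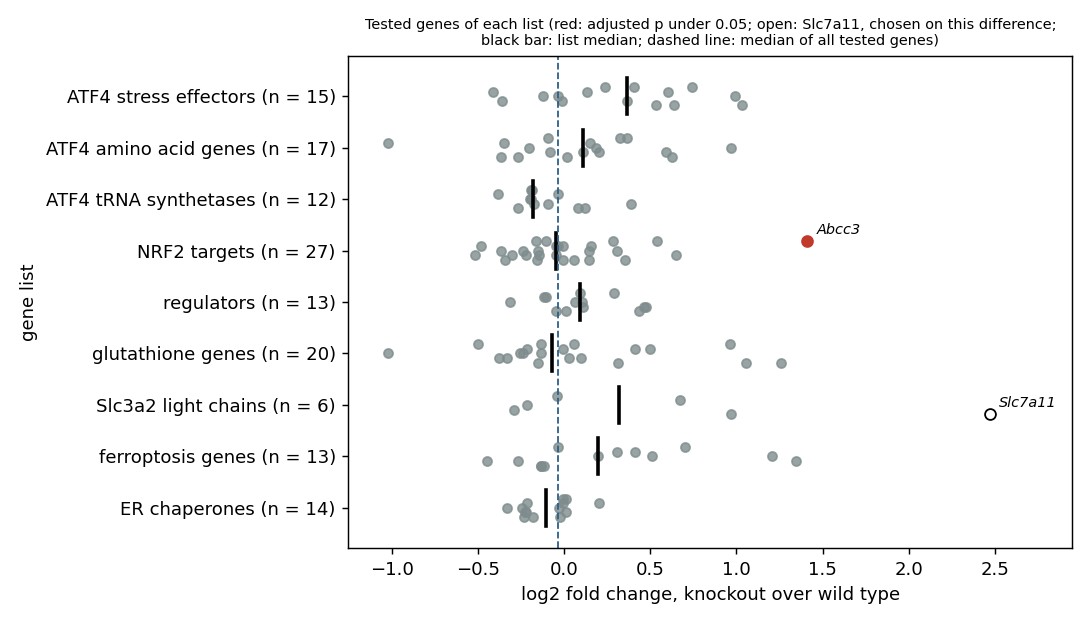
Log2 fold change (x axis) of every tested gene in 9 lists (y axis). The red point is called, the open circle is Slc7a11, black bars are list medians and the dashed line is the median of all tested genes at -0.03. Abcc3 at 1.41 is the 1 called gene, Slc7a11 at 2.47 is shown without a call, and list medians lie between -0.18 and 0.36; that of the light chains includes Slc7a11.

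Of 13 regulators of the 2 pathways, 0 were called by edgeR or limma-voom, with 1 higher and 0 lower at an unadjusted p under 0.05. The largest were Mafk (a small Maf partner of Nrf2) at 0.48 (SE 0.25, adjusted p = 0.443), Nfe2l1 (the Nrf2 relative that drives proteasome genes) at 0.47 (SE 0.14, adjusted p = 0.202) and Nfe2l2 at 0.44 (SE 0.24, adjusted p = 0.453). Nfe2l1 stood at 222 to 324 CPM in knockout and 162 to 212 CPM in wild type without overlap, and DESeq2 called it (adjusted p = 0.0441). Nfe2l2 stood at 36.3, 32.9, 81.2, 61.7 and 60.7 CPM in knockout and at 42.9, 44.9, 34.3, 32.6 and 46.7 CPM in wild type. Its 3 highest libraries were knockout 42, 49 and 50, the same 3 as for Slc7a11.

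Of 20 further genes of cysteine and glutathione supply, use and breakdown, 0 were called by edgeR or limma-voom, with 3 higher and 1 lower at an unadjusted p under 0.05. Estimates were above 0 for 9 and below 0 for 11, with a median of -0.07. Besides Cth, the largest were Ggt5 (a gamma-glutamyl transferase that cleaves extracellular glutathione conjugates) at 1.26 (SE 0.43, adjusted p = 0.253) and Slc1a3 (the glial glutamate transporter GLAST) at 1.06 (SE 0.33, adjusted p = 0.224). Ggt5 stood at 6.58 to 21.7 CPM in knockout and 2.53 to 9.37 CPM in wild type, and Slc1a3 at 72.1 to 232 and 32.8 to 91.4 CPM. Both overlapped between groups. DESeq2 called 1 gene of the list, Oplah (5-oxoprolinase, which returns glutamate from the glutathione cycle), with an adjusted p of 0.0265 against 0.212 by edgeR. Oplah stood at 19.9 to 27.5 CPM in knockout and 13.8 to 18.7 CPM in wild type, without overlap. Chac2, which like Chac1 degrades glutathione, lay the other way without overlap, at 7.79 to 8.77 CPM in knockout and 9.01 to 14.1 CPM in wild type (log2 fold change -0.50, SE 0.18, edgeR adjusted p = 0.277); both genes were named after their values were seen.

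The other listed genes whose windows held a CARE had estimates on both sides of 0. CAREs were in 15 of 45 windows of the 3 Atf4 lists (33.3%) and in 0 of 30 windows of the Nrf2 list, where AREs were in 9 (30%). Over all lists, 16 tested genes other than Slc7a11 had a CARE. None was called by edgeR, against 0.467% of all genes, so 0 calls in a set this small say little. Of the estimates, 8 were above 0 and 8 below, and the median was 0.03, from Vldlr (a lipoprotein receptor) at -0.41 to Nupr1 at 0.99. A window with 2 CAREs also occurred in Aars (alanyl-tRNA synthetase), with a log2 fold change of 0.08, and in Slc7a7, with -0.22. The 34 tested genes with an ARE included 0 called genes, which says as little beside that share, and had a median of -0.02.

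The target lists differed in which knockout library was highest. Slc7a11 was highest in knockout 50, then 42, 49, 16 and 29. The synthetases were highest in knockout 29 for 11 of 12 genes, the Nrf2 targets for 17 of 27 and the Atf4 stress effectors for 7 of 15. So were 6 of 7 sensory neuron and 5 of 5 erythroid markers. The share of all tested genes highest in knockout 29 was not taken, so these counts cannot be called particular to the target lists. The Atf4 amino acid genes were highest in knockout 50 for 5 of 17 and in knockout 29 for 4, and their sum was 1399 CPM in knockout 50, where Slc7a11 was highest, and 1040 to 1160 CPM in the remaining knockouts. The synthetase sum reached 1986 CPM in knockout 29 and ranged from 1371 to 1603 CPM in the remaining knockouts, against a wild-type range of 1569 to 1890 CPM. The Nrf2 target sum was 2363 CPM in knockout 29 and no more than 1836 CPM in the other knockouts. In wild type it was 2365 CPM in library 24 and no more than 1723 CPM elsewhere. Knockout 29 also held the highest sensory neuron sum, 12220 CPM, and the highest erythroid sum, 2967 CPM, of all libraries, and their part in these orders was not tested.

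**Figure D4:**
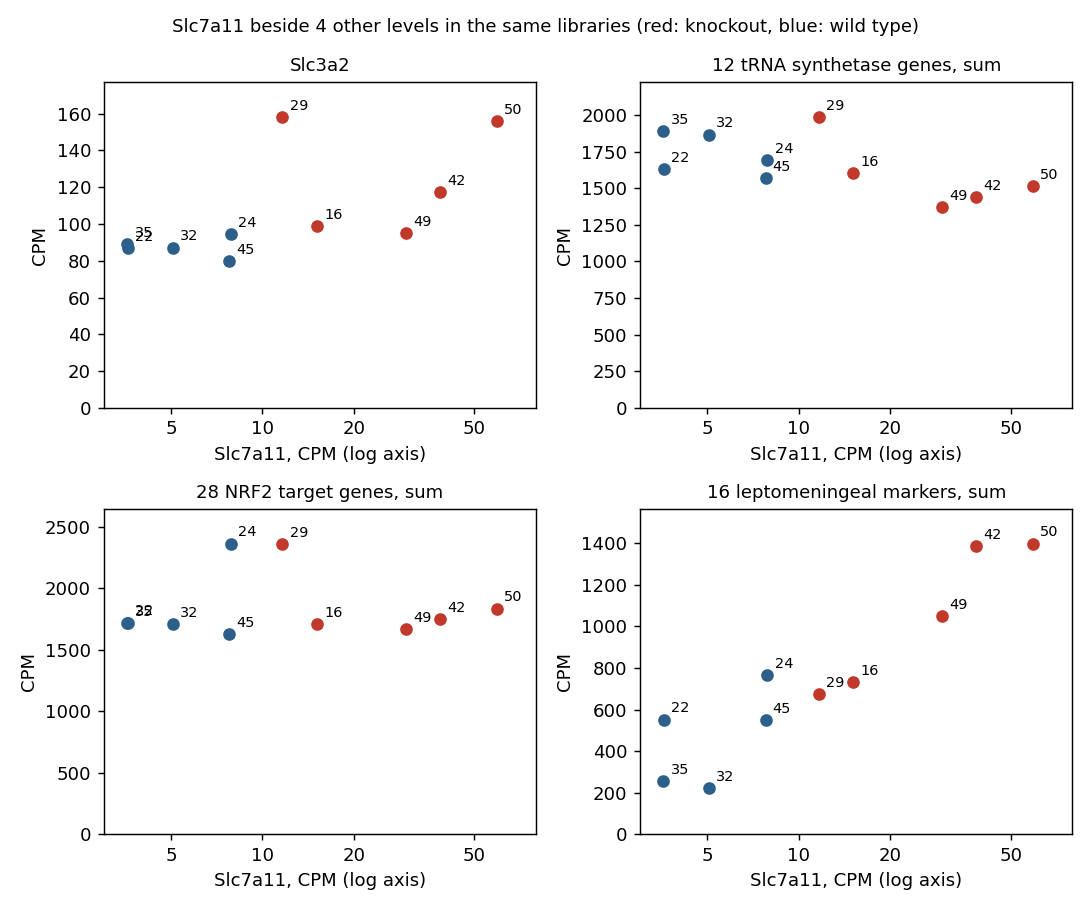
Each panel plots Slc7a11 (x axis, CPM, log axis) against another level (y axis, CPM): Slc3a2, 12 tRNA synthetases summed, 28 Nrf2 targets summed and 16 leptomeningeal markers summed. Points are libraries, numbered, red for knockout and blue for wild type. Knockout 29, lowest of the knockouts in Slc7a11, is highest in the synthetase sum at 1986 CPM, and knockout 50 and 42 lead both Slc7a11 and the leptomeningeal sum. The leptomeningeal list was drawn up after values had been seen.

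The genes most like Slc7a11 across the 10 libraries were not among the Atf4 or Nrf2 targets listed. By Pearson r of log2 CPM over 15551 genes of mean CPM at least 1, the top 5 were Tlr12 (a Toll-like receptor, r = 0.983), Cxcl16 (a chemokine, 0.977), Gbp8 (a guanylate-binding protein, 0.972), Sidt1 (0.969) and Slc13a4 (a sulfate transporter, 0.968). With each group centred on its own mean, so that the genotype difference is removed, the top 5 were Gbp4 (0.994), Sidt1 (0.960), Cxcl16 (0.956), Ankrd33b (0.955) and Lpxn (0.952). These points share libraries, depth and tissue makeup, and the values are a description. Some rest on few counts, with 5 for Lpxn, 7 for Ankrd33b and 10 for Tlr12 in knockout 49. Without centring, Lpxn had r = 0.152 over the 10 libraries. Sidt1 stood at 7.56, 4.96, 27.1, 13.0 and 50.8 CPM in knockout and 1.94, 5.28, 1.80, 2.01 and 6.55 CPM in wild type, with the same highest and lowest knockout as Slc7a11. The group-centred r of the other 9 genes ran from -0.43 (Atf4) to 0.49 (Nqo1) with a median of 0.19, and that of Slc3a2 was 0.06. For the 12 synthetases it was below 0 for all, with a median of -0.54, against 0.02 over all genes compared. Medians were 0.0019 for the Atf4 stress effectors, 0.02 for the Atf4 amino acid genes and 0.05 for the Nrf2 targets. Single genes lay higher, among them Nfe2l2 at 0.81 (rank 116) and Nupr1 at 0.81 (rank 135), both named here after their values were seen.

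Marker lists differed in how far they moved with Slc7a11 among the libraries. With each group centred, r with Slc7a11 was above 0 for 7935 of the 15551 genes compared (median 0.02). It was above 0 for 6 of 6 macrophage markers (median 0.53), 5 of 5 endothelial (0.39) and 6 of 6 mesenchymal ones (0.34). For epithelium it was above 0 in 3 of 4 (0.19), and for the central nervous system in 3 of 5 (0.06). Glia had 2 of 5 above 0 (-0.04), nociceptors 2 of 6 (-0.12), erythroid cells 1 of 5 (-0.17) and melanocytes 1 of 1 (0.06). All 7 of 7 sensory neuron markers were below 0 (-0.50). A list of 16 genes of the leptomeninges, the soft membranes around nervous tissue, drawn up after values had been seen and therefore given no test, summed to 732, 674, 1388, 1051 and 1399 CPM in knockout and to 552, 765, 223, 257 and 550 CPM in wild type. Of the 16, 15 had estimates above 0, none was at 0 in all libraries, and 14 had a group-centred r with Slc7a11 above 0, with a median of 0.72. Slc13a4, picked above by its r with Slc7a11, is 1 of them, so a high median r was partly built in. Further list genes, Slc6a20a, Cyp1b1, Slc6a13 and Slc22a6, ranked 6, 8, 12 and 17 by r over the 10 libraries. The list therefore gives no independent measure of likeness to Slc7a11. Foxc1 and Aldh1a2 are on the mesenchymal list as well. Slc47a1 (r = -0.62) and Crabp2 (-0.35) went the other way. Slc22a6, an organic anion transporter of the list, stood at 53.5, 82.1, 128, 127 and 215 CPM in knockout and at 25.9, 43.2, 14.1, 16.4 and 42.6 CPM in wild type. Endothelial markers summed to 303 to 808 CPM in knockout and 152 to 363 CPM in wild type, and mesenchymal ones to 2052 to 7387 and 508 to 3861 CPM.

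Set against the leptomeningeal sum, Slc7a11 came to 1.73 to 4.24 CPM per 100 CPM of markers in knockout and to 0.653 to 2.27 in wild type, so the groups overlapped. Per 100 CPM of the macrophage sum the ranges were 8.33 to 19.8 and 2.50 to 12.5, also overlapping, and per 100 CPM of the mesenchymal sum 0.522 to 1.37 and 0.0933 to 0.997. The groups overlapped for 9 of the 11 marker lists, that of the sensory neurons included. For sensory neurons, glia, endothelium and erythroid cells, knockout 29 was the only knockout below the highest wild type. Its sensory neuron value was 0.0953, against a highest wild type of 0.127. In the remaining overlapping lists, knockout 29 and at least another knockout lay below the highest wild type. The groups did not overlap for nociceptors, of which 4 of 6 markers were called lower (0.372% of all genes were). Nor did they for melanocytes, whose sum was 1.16 to 2.59 CPM. For each list the knockout median stayed above the wild-type median. These medians were 2.78 and 1.39 for the leptomeninges, 14.8 and 6.235 for macrophages, and 0.580 and 0.267 for mesenchyme. The part of these tissues in the Slc7a11 difference was not tested.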

How the data were processed

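Total RNA from 10 libraries was sequenced. Each deposited file gives 1 raw count for every gene ID. Per the submitters' processing notes, the authors used featureCounts 1.5.0-p1 and STAR 2.7.10a, and the builds GRCm39 and mm10 are listed without roles. The annotation release and the strand setting were not stated. Symbols and exon lengths came from an annotation of GRCm38, so levels per kilobase rest on its lengths. All 213 listed symbols were found.

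Counts were fitted in edgeR 4.0.16 (R 4.3.3) with TMM factors, filterByExpr at a minimum count of 10, the quasi-likelihood test and Benjamini-Hochberg adjustment over 18005 genes. DESeq2 1.42.0 and limma-voom (limma 3.58.1) were alternatives. Of 20 library pairs within a group, none agreed within sampling noise. Wild type 32 and 35 were the closest pair (Spearman r = 0.9957, against at most 0.9889 for the others). The fit treated them as separate samples.

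The members, lists and tests were chosen with earlier results of these data known. Named genes were the 10 members, all light chains, called genes and the 3 largest absolute log2 fold changes per list at mean CPM at least 1, and the 5 genes most like Slc7a11 by each measure. Likeness used a prior count of 2.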

Additional observations from a re-analysis of the deposited data

Results flagged for a closer look

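Single libraries stood apart from the other 4 of their group, by Dixon's test, in 9 of 92 gene and group combinations over 46 named genes. Chance flags about 1 in 20 groups. Of the 9, 4 were high values in wild type 24. They were Atf4 at 180 CPM (others 156 to 160), Srxn1 at 27.6 CPM (others 16.6 to 19.3), Slc7a5 at 54.3 CPM (others 33.4 to 39.3) and Cbr3 at 2.46 CPM (others 0.171 to 0.734). Knockout 50 stood apart for 3 amino acid transporters. Slc7a5 was at 142 CPM (others 54.1 to 72.9), Slc7a8 at 33.1 CPM (others 20.8 to 22.5) and Slc7a1 at 201 CPM (others 65.7 to 96.5). Knockout 29 stood apart for Cars at 77.1 CPM (others 51.5 to 55.8) and for Prdm12 at 42.7 CPM (others 8.74 to 17.0). Slc7a11 had no library that stood apart in either group.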

How the results depend on the processing

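No paired analysis was possible because no replicate number occurs in both groups. Over 18 alternatives (DESeq2, limma-voom, RLE factors, no filter, a robust prior, each of 10 libraries left out, and 3 sets of libraries left out) the log2 fold change of Slc7a11 ran from 2.09 to 2.75, and 0 of the other 9 genes, 0 synthetases and 0 chaperones were called. Slc7a11, which was chosen on this difference, passed the threshold in 6 of the 18, given as a description and not as a test. Counts over all genes moved most, and the cause was not tested. They were 343 higher and 243 lower with DESeq2, and 55 and 102 with no filter. Leaving out one library gave 2 to 35 higher and 27 to 88 lower, with the fewest higher without wild type 35 and the most without knockout 16 or wild type 24. Without wild type 32 and 35 there were 0 and 19, without knockout 29 and 49 there were 6 higher, and without all 4 there were 0 and 7. DESeq2 called 1 gene each among the Atf4 amino acid genes, regulators, glutathione genes and ferroptosis genes, and 2 light chains besides Slc7a11. Leaving out one library called 0 to 1 Atf4 stress effectors and 0 to 1 Nrf2 targets. The Nrf2 call was 0 with no filter, with a robust prior and without each of the 3 sets of libraries.

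Signs turned only for genes that were not called in any setting. The Gclm log2 fold change was 0.0447 (DESeq2), 0.0279 (limma-voom), 0.0471 (RLE), 0.0016 (no filter), 0.128 (without wild type 32 and 35), 0.0892 (without knockout 29 and 49), 0.211 (without all 4) and -0.0644 to 0.0693 with one library left out. The Txnrd1 log2 fold change was 0.0317 (DESeq2), 0.0005 (limma-voom), 0.0404 (RLE), 0.0027 (without wild type 32 and 35) and -0.078 to 0.143 with one library left out. The Slc7a10 log2 fold change was 0.0287 (DESeq2), 0.0675 (limma-voom), 0.0135 (RLE), 0.0622 (without knockout 29 and 49), 0.0109 (without all 4) and -0.145 to 0.229 with one library left out. The Nqo1 log2 fold change was 0.124 (limma-voom), 0.0107 (without knockout 29 and 49) and -0.312 to 0.208 with one library left out. The Gclc log2 fold change was 0.118 (without wild type 32 and 35), 0.110 (without all 4) and -0.0929 to 0.0482 with one library left out. The Slc7a7 log2 fold change was 0.138 without wild type 32 and 35 and 0.182 without all 4. Without all 4, the Slc7a6 log2 fold change was 0.0028 and the Gsta4 log2 fold change -0.0071. Knockout 49 held 3258008 counts, where 3 counts are 0.869 CPM, the coarsest floor of the 10 libraries.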

Other observations

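Genes of iron handling and lipid peroxidation, the processes behind ferroptosis that glutathione holds back, were measured in the same libraries. Of 14 listed, 13 were tested and 0 were called by edgeR or limma-voom, while edgeR called 0.467% of all genes. At an unadjusted edgeR p under 0.05, 4 were higher and 1 lower, against 6.4% and 6.73% of all genes. DESeq2 called Alox12 (adjusted p = 0.0131), against 1.6% of all genes it called higher. Estimates were above 0 for 7, with a median log2 fold change of 0.20. Alox12, a lipoxygenase, stood at 6.02, 21.7, 11.8, 8.69 and 17.1 CPM in knockout 16, 29, 42, 49 and 50 and at 4.27, 3.33, 8.56, 3.99 and 5.67 CPM in wild type 22, 24, 32, 35 and 45 (log2 fold change 1.34, SE 0.37, edgeR adjusted p = 0.166). Slc40a1, the iron exporter ferroportin, stood at 25.4, 10.54, 48.0, 43.1 and 83.1 CPM against 19.8, 34.9, 7.41, 9.25 and 19.9 CPM (1.20, SE 0.53, edgeR adjusted p = 0.364), in the same knockout order as Slc7a11 at both ends. Gch1, which makes the antioxidant tetrahydrobiopterin, had a log2 fold change of 0.70 (SE 0.31, edgeR adjusted p = 0.363). Gpx4, the glutathione peroxidase that repairs lipid peroxides, was named after its values were seen and had -0.13 (SE 0.23, edgeR adjusted p = 0.832).

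Chaperones of the endoplasmic reticulum, targets of the Xbp1 and Atf6 branches of the unfolded protein response, included 0 called genes of 14 by edgeR, DESeq2 and limma-voom. Over all genes, edgeR called 0.467%. At an unadjusted edgeR p under 0.05 there were 0 in either direction, against 6.4% of all genes higher and 6.73% lower. Estimates were below 0 for 11, with a median of -0.10, and the largest were Manf at -0.33, Xbp1 at -0.24 and Hspa5, the main lumenal chaperone, at -0.23. Hspa5 stood at 474 to 712 CPM in knockout and 649 to 720 CPM in wild type.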
